A study of Mus musculus with 9 samples.

Results

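Cytosolic ribosomal protein genes were followed across 3 groups of primary mouse CD4+ T cells. Members were the genes whose symbol marks a protein of the large (Rpl) or small (Rps) cytosolic subunit, with Rplp0, Rplp1, Rplp2 and Rpsa, without symbols of pseudogenes (-ps) and S6 kinases, and with at least 1 CPM (a gene's reads after scaling every library to the same total) in 3 or more libraries. This gave 85 members, 51 named for the large and 34 for the small subunit, of 16500 genes listed. The symbol rule matched 88 genes. Rpl39l, Rps29 and Rps4l fell below the limit, with a highest value of 0.964 CPM in any library, and Rpl36a, at 1.89 to 5.31 CPM, Rpl24, at 2.60 to 5.57 CPM, and Rps7, at 2.64 to 4.31 CPM, lay closest above it. CD4+ T cells from C57BL/6 mice had been transduced with a retroviral Control vector, with NFAT2_CA (a constitutively active form of NFAT2, the product of Nfatc1) or with NFAT2_CARIT (the active form with changes that impair its cooperation with AP-1 on DNA). There were 9 libraries, 3 in each group, and all groups shared the strain, the transduction and the culture medium. The labels do not tie a library to its own animal or culture. Every p-value therefore reflects only how far these libraries differed from each other, which may be technical.

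A cytosolic ribosome consists of a small subunit, which holds the mRNA and the decoding site, and a large subunit, which forms peptide bonds and lets the new chain out through a tunnel. Ribosomal protein mRNAs begin with a C followed by a run of pyrimidines, the terminal oligopyrimidine (TOP) tract, through which the kinase complex mTORC1 and the protein Larp1 control their translation. T cells build ribosomes when they are activated and grow. Mammalian genomes also hold many intronless copies of these genes, made by reverse transcription of their mRNAs, and most of those copies are pseudogenes.

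Many reads of these families were listed on the rows of such copies. For each of 82 protein-coding ribosomal protein genes among the 88 symbols, listed rows of single-exon genes or pseudogenes with at least 90% identity over at least 50% of the coding sequence were counted as its processed copies, by blastn against GENCODE M21 transcripts (GRCm38). Copies were found for 75 of the 82 genes, 341 rows in all. In 61 genes the copies together held more CPM than the gene's own row, and in 43 the own row held under 10% of the family's CPM, with a median of 8.86% over all 82. Rpl10, which carries a residue near the peptidyl transferase centre, had 0.60% of its family's CPM on its own row. Reads listed for the gene and for its copy cannot be told apart where the sequences are the same, so every own-row value below is uncertain in this sense. The family sum (own row plus copy rows) is given beside many of these values, though not beside all.

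The coding sequences that follow show how little separates a gene from its most abundant copy. They are GENCODE M21 sequences, 5′ to 3′, with positions counted from 1 at the A of the start codon, and capitals mark the bases that differ between gene and copy. Rps26 lies at chr10:128624534-128626747 (minus) and its copy Rps26-ps1 at chr8:107439131-107439579 (minus). They differ at 2 of 345 coding bases, C30T and G270A, neither of which makes a stop codon.
Rps26, bases 1 to 60: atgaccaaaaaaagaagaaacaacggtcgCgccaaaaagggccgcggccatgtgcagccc
Rps26-ps1, bases 1 to 60: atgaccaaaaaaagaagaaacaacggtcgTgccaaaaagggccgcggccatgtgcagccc
Rpl31 at chr1:39367842-39371911 (plus) and Rpl31-ps8 at chr15:90764279-90764656 (minus) are identical over all 375 coding bases, and so are Rpl12 at chr2:32961559-32965345 (plus) and Gm10275 at chr10:29698746-29699380 (minus) over 495 bases. Their first 60 bases, shown once for each pair, have no capitals because no base differs.
Rpl31 and Rpl31-ps8: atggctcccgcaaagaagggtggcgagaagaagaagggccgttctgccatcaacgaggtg
Rpl12 and Gm10275: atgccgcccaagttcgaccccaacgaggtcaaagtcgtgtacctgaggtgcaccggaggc

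**Figure D1:**
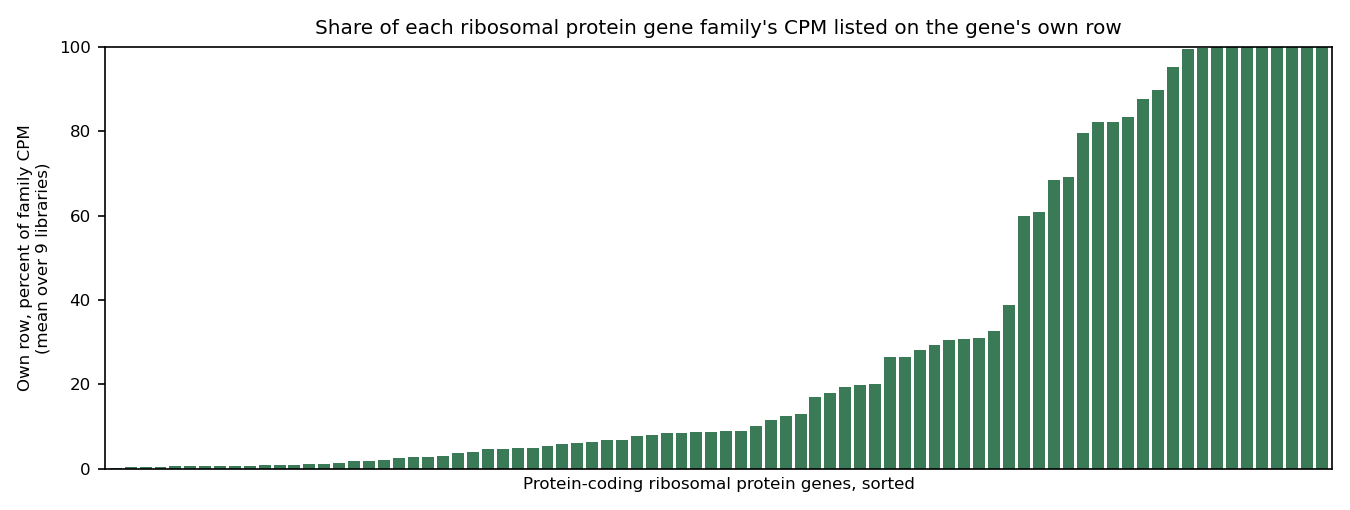
Share of each family's CPM (own row plus processed copies, mean over the 9 libraries) that is listed on the gene's own row, in percent, for the 82 protein-coding genes sorted from lowest to highest. Most bars are short: 43 genes keep under 10% on the own row, while a group of genes at the right keeps all or nearly all of it.

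The step between the lowest CPM values put the depth at 19957700 to 38195100 reads per library. Of the values between 1 and 50 CPM, 76.1% to 78.8% of those of all genes were whole numbers of reads within 0.1 read, against 22.2% to 39.4% of those of members. Nfatc1 itself stood at 188 to 228 CPM in Control, 336 to 395 CPM with NFAT2_CA and 240 to 253 CPM with NFAT2_CARIT, with no overlap between groups. All 7 T cell markers were listed, and their summed level was 9112 to 9792 CPM in Control, 5877 to 6338 CPM with NFAT2_CA and 5658 to 5719 CPM with NFAT2_CARIT. That difference lay in Thy1, at 4521 to 4990, 632 to 658 and 648 to 662 CPM, and the other 6 genes summed to 4554 to 4802, 5245 to 5682 and 5010 to 5059 CPM in the same order. Of the B cell list, 3 of 5 genes were listed, at a sum of 411 to 422, 206 to 211 and 182 to 204 CPM, nearly all of it Ighm, while Ms4a1 was not among the listed genes. The 2 CD8 genes summed to 12.5 to 13.7, 28.4 to 30.8 and 22.6 to 24.0 CPM, and 3 of 6 myeloid genes to at most 9.39 CPM in any library. None of 3 NK cell genes was listed. Their part in the results below was not tested, and in bulk RNA fewer cells of a type cannot be told apart from less RNA per cell.

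The members' own rows made up 2.67% ± 0.27 (SD, n = 3) of all CPM in Control, 2.86% ± 0.14 (SD, n = 3) with NFAT2_CA and 2.82% ± 0.10 (SD, n = 3) with NFAT2_CARIT. By library the share was 2.51%, 2.52% and 2.98% in Control, 2.85%, 2.99% and 2.72% with NFAT2_CA, and 2.93%, 2.78% and 2.74% with NFAT2_CARIT. Control replicate 3 lay above the other two Control libraries and inside or above the ranges of the NFAT2 groups, so the groups overlapped. With the copies included the share was 9.73%, 9.77% and 11.5% in Control, 11.4%, 11.7% and 10.6% with NFAT2_CA, and 11.5%, 10.9% and 10.6% with NFAT2_CARIT, again overlapping through Control replicate 3. Among the 3 Control libraries, replicate 3 was the highest for 73 of 85 members, whereas 41.0% of all genes tested had their highest Control value there. The median coefficient of variation of the members was 11.3% in Control, 6.11% with NFAT2_CA and 6.06% with NFAT2_CARIT. For all genes tested it was 8.0%, 7.0% and 6.9% in the same order, and for family sums 9.5%, 5.3% and 4.4%.

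**Figure D2:**
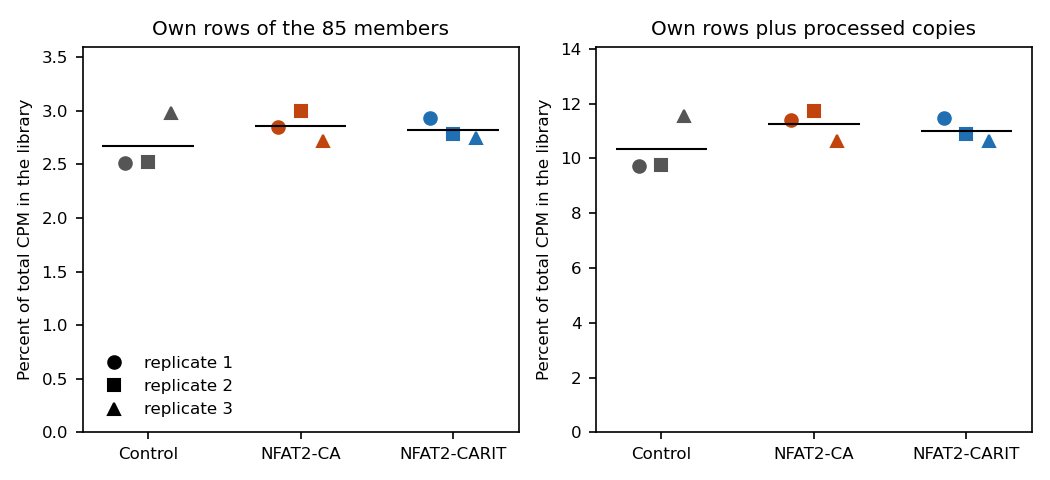
Percent of each library's total CPM on the own rows of the 85 members (left) and on own rows plus processed copies (right), by group. Each symbol is 1 library (circle, square and triangle for replicates 1, 2 and 3) and the line is the group mean; Control replicate 3, at 2.98% and 11.5%, lies among the NFAT2 libraries.

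Under NFAT2_CA some ribosomal protein genes rose by 1.5-fold or more on the fitted scale, while 50 of 85 members were not called. On own rows 25 of the 85 members were called higher and 10 lower than in Control (limma on log2(CPM + 1), adjusted p under 0.05 over all 13090 genes tested), against 29.0% of all genes tested called higher and 36.5% called lower. Thus 41.2% of the members changed, where 65.5% of all genes did. Groups were fully separate for 25 higher and 11 lower members, as they were for 68.3% of all genes. The members' median log2 fold change was 0.07, against -0.06 for all genes tested. On family sums 30 of the 80 protein-coding members were called higher and 7 lower (46.2%), where 29.1% and 37.1%, together 66.2%, of all genes were; 28 and 7 did not overlap, against 68.9% of all. Leaving out Control replicate 3 gave 34 higher and 10 lower on own rows, and 40 and 6 on family sums. On family sums 15 were lower without Control replicate 1 and 12 without Control replicate 2. Between the own row and the summed copies of the 73 genes that have both, 23 were called in both, each in the same direction, 7 on the own row alone and 13 on the copies alone.

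With TMM scaling factors the counts on own rows were 30 higher and 9 lower for NFAT2_CA, and 33 higher and 4 lower for NFAT2_CARIT, and on family sums 34 and 4, and 34 and 3. These factors also raised the median of all genes tested on own rows, from -0.06 to 0.00 and from -0.09 to -0.02. The share of all genes called with them was not counted, so these member counts have no such share beside them. Of the 5 members that are themselves processed copies (Rpl6l, Rpl32l, Rps12l1, Rps3a2 and Rps3a3), 3 were higher and none lower under each vector, also at an unadjusted p under 0.05. Of all genes tested, limma called 29.0% and 29.2% higher and 36.5% and 41.1% lower on own rows. Reads of these copies and of the genes they derive from cannot be told apart where the sequences are the same. By the authors' deposited table, members called higher numbered 16 and those called lower 2 at a step-up FDR under 0.05 in each of the comparisons with Control, where 21.8% of all listed genes (11.4% higher, 10.4% lower) were called for NFAT2_CA and 25.6% (12.1% and 13.5%) for NFAT2_CARIT. Among members named below, Rps26, Rps2, Rpl31, Rpl8 and Rpl12 were called there in both comparisons. Rpl10 and Rpl7l1 were called there for NFAT2_CARIT alone, with a step-up FDR of 0.098 and 0.162 for NFAT2_CA, and Rps4x for NFAT2_CA alone. Rps12, Rpl38, Rpl28, Rpl22l1, Rps27a, Rps6, Rpl39, Rpl18, Rps9, Rps15a and Rps18 were called there in neither. The comparisons with Control share the Control libraries, so their values for the members are given side by side and are not independent of each other.

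Rps26, which lines the mRNA exit channel of the small subunit, stood at 95.8, 104.6 and 120.2 CPM in Control. With NFAT2_CA it was at 200.7, 217 and 178 CPM and with NFAT2_CARIT at 212, 205 and 214 CPM. Every library with an NFAT2 vector lay above every Control library, while the vectors' own ranges overlapped. Its log2 fold change was 0.89 ± 0.08 (adjusted p = 9e-08) with NFAT2_CA and 0.98 ± 0.08 (adjusted p = 2.46e-08) with NFAT2_CARIT, and on family sums 0.85 ± 0.07 and 0.83 ± 0.07. Rps2, which sits at the mRNA entry of the small subunit, read 507, 496 and 543 CPM in Control, 666, 929.8 and 830.5 CPM with NFAT2_CA, and 854, 799.6 and 782 CPM with NFAT2_CARIT. No NFAT2 library overlapped Control. It rose by 0.64 ± 0.10 and 0.65 ± 0.10 on the own row and by 0.79 ± 0.06 and 0.68 ± 0.06 on the family sum. Rps3, another protein of the mRNA entry, showed values of 2546, 2519 and 3274 CPM in Control, 2629, 2695 and 2428 CPM with NFAT2_CA, and 2651, 2404 and 2359 CPM with NFAT2_CARIT, and it was not called (log2 fold changes -0.10 ± 0.09 and -0.16 ± 0.09). Of the 4 listed proteins of the mRNA channel, 2 were called on own rows and 3 on family sums under each vector, all of them higher. Of all genes, 65.5% and 70.3% were called on own rows and 66.2% and 71.0% on family sums.

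Rpl31, at the mouth of the peptide exit tunnel, was listed at 4.02, 4.41 and 4.78 CPM in Control, 9.79, 9.35 and 11.4 CPM with NFAT2_CA, and 11.1, 9.90 and 11.9 CPM with NFAT2_CARIT. All NFAT2 libraries lay above all Control libraries. The own row rose by 1.05 ± 0.11 (adjusted p = 4.54e-07) and 1.14 ± 0.11 (adjusted p = 1.33e-07). Its copy Rpl31-ps8, identical in coding sequence, carried nearly all of a family sum of 412 to 488 CPM in Control, 742 to 815 CPM with NFAT2_CA and 775 to 802 CPM with NFAT2_CARIT, a rise of 0.81 ± 0.06 and 0.82 ± 0.06. In all, 10 proteins of the exit tunnel were read out. On own rows 2 were called higher and 2 lower with NFAT2_CA, and 2 higher and 1 lower with NFAT2_CARIT. On family sums 4 were higher and none lower under each vector. Of all genes, 29.0% and 29.2% were higher and 36.5% and 41.1% lower on own rows. On family sums 29.1% and 29.3% of all genes were higher and 37.1% and 41.7% lower.

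Rpl10, X-linked and among the last proteins to join the large subunit, stood at 6.53, 7.45 and 9.004 CPM in Control, 13.8, 13.8 and 13.7 CPM with NFAT2_CA, and 15.9, 22.4 and 15.9 CPM with NFAT2_CARIT. The own rows of the 3 groups did not overlap. Its log2 fold change was 0.78 ± 0.13 (adjusted p = 5.77e-05) and 1.13 ± 0.13 (adjusted p = 8.57e-07), and on the family sum, nearly all of it on Rpl10-ps3, 0.77 ± 0.07 and 0.83 ± 0.07. Of the other X-linked members, Rps4x, which has a Y-linked counterpart in humans, rose by 0.24 ± 0.06 and 0.17 ± 0.06. Rpl39, a small protein of the exit tunnel, fell by 0.17 and 0.15 on the log2 scale (SE 0.06; adjusted p = 0.0189 and 0.0328) on its own row, and its family sum was not called (adjusted p = 0.0692 and 0.163). Rpl36a was not called on its own row, at 1.89 to 5.31 CPM, and rose on its family sum by 0.63 ± 0.06 and 0.47 ± 0.06.

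Further large-subunit proteins rose together on own rows and family sums. Rpl8, which has no listed copy and so no family to share reads with, stood at 1400, 1344 and 1554 CPM in Control, 1973, 2114 and 1886 CPM with NFAT2_CA, and 2064, 2011 and 1901 CPM with NFAT2_CARIT. All 6 NFAT2 libraries lay above Control, and the log2 fold change was 0.48 ± 0.07 under both vectors (adjusted p = 8.73e-06 and 7.22e-06). Rpl28 rose by 0.52 ± 0.11 and 0.65 ± 0.11 on the own row and by 0.80 ± 0.06 and 0.79 ± 0.06 on the family sum. In the small subunit, Rps6, the substrate of the S6 kinases, rose by 0.26 ± 0.07 and 0.25 ± 0.07. By subunit, 13 of 49 large and 9 of 31 small protein-coding members were called higher with NFAT2_CA on own rows, and 7 and 3 lower. Of all genes tested, 29.0% were higher and 36.5% lower. The subunits' medians were 0.08 and -0.02, and the small-subunit median was 0.04 with TMM factors. With NFAT2_CARIT 13 large and 11 small members were higher and 7 and 4 lower, where 29.2% and 41.1% of all genes tested were. The medians were then 0.09 and 0.04 without TMM factors.

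**Figure D3:**
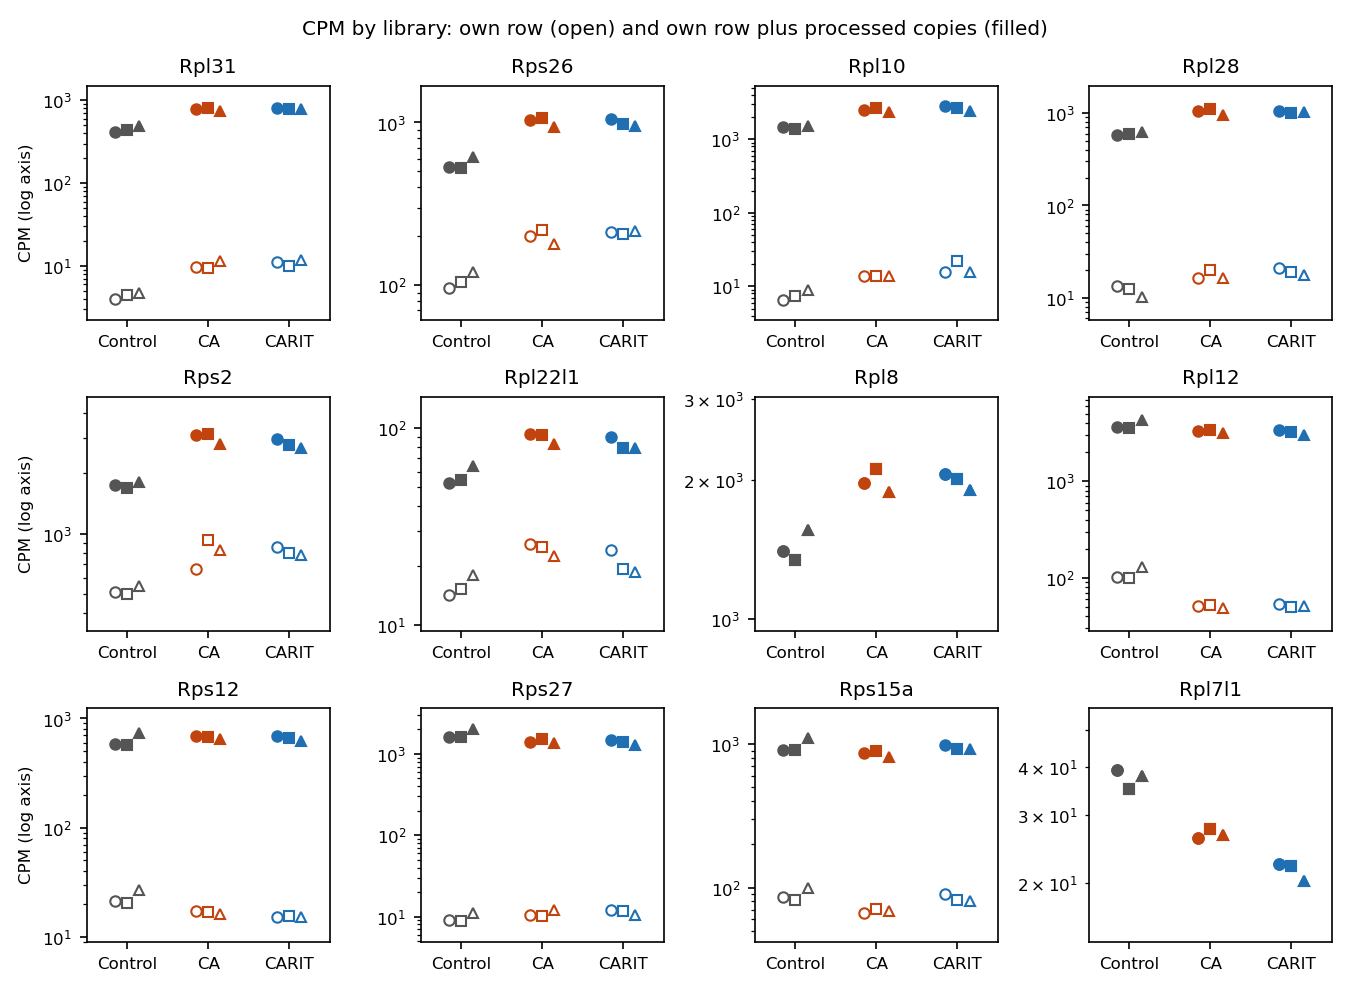
CPM on a log axis in each of the 9 libraries for 12 genes, by group; open symbols are the gene's own row, filled symbols the own row plus processed copies, and circle, square and triangle are replicates 1, 2 and 3. Own row and family sum move together for Rpl31, Rps26 and Rpl10, whereas for Rpl12 the own row falls more than the family sum and for Rps12 the family sum was not called; for Rpl8 and Rpl7l1, which have no copy, the symbols coincide.

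Of the falls on own rows some were seen on the family sum and others were not. Rpl12, part of the base of the ribosomal stalk, had the largest fall: its own row stood at 102, 101 and 129 CPM in Control, 51.6, 52.4 and 48.9 CPM with NFAT2_CA, and 54.2, 49.9 and 51.7 CPM with NFAT2_CARIT. No NFAT2 library reached the Control range. The own row fell by 1.09 and 1.06 on the log2 scale (SE 0.08; adjusted p = 8.26e-09 and 9.28e-09), while the family sum, of which the own row is 2.05%, fell by 0.21 and 0.27 (SE 0.07; adjusted p = 0.0118 and 0.0024). Rps12 differed more between the measures. Its own row fell by 0.41 and 0.54 (SE 0.10), and its family sum, mostly on the identical copy Rps12l1, had log2 fold changes of 0.10 ± 0.08 and 0.07 ± 0.08 that were not called (adjusted p = 0.265 and 0.451).

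Rpl7l1, an Rpl7-like protein of ribosome assembly with no listed copy, went from 39.4, 35.0 and 37.9 CPM in Control to 26.1, 27.5 and 26.7 CPM with NFAT2_CA and 22.4, 22.1 and 20.2 CPM with NFAT2_CARIT. The 3 groups did not overlap. It fell by 0.47 (SE 0.07; adjusted p = 2.73e-05) and 0.77 (SE 0.07; adjusted p = 8.08e-08). Rpl38, known for its part in the translation of Hox mRNAs, fell by 0.40 and 0.32 on the own row (SE 0.12) and by 0.35 and 0.24 on the family sum (SE 0.07). Rps15a and Rps18, both of the small subunit, fell on own rows with NFAT2_CA, by 0.36 (SE 0.07; adjusted p = 0.000399) and 0.34 (SE 0.09; adjusted p = 0.00461), with log2 fold changes of -0.08 and -0.09 that were not called with NFAT2_CARIT. Neither was called on its family sum in these comparisons. Rps27, a zinc-finger protein of the small subunit, was not called on its own row of 8.83 to 12.1 CPM, at 0.16 ± 0.11 and 0.23 ± 0.11. Its family sum, 1623, 1622 and 1999 CPM in Control, 1419, 1534 and 1376 CPM with NFAT2_CA and 1496, 1417 and 1282 CPM with NFAT2_CARIT, fell by 0.27 and 0.32 (SE 0.08). Nearly all of that sum lay on Rps27rt, an intronless gene with the same coding sequence.

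**Figure D4:**
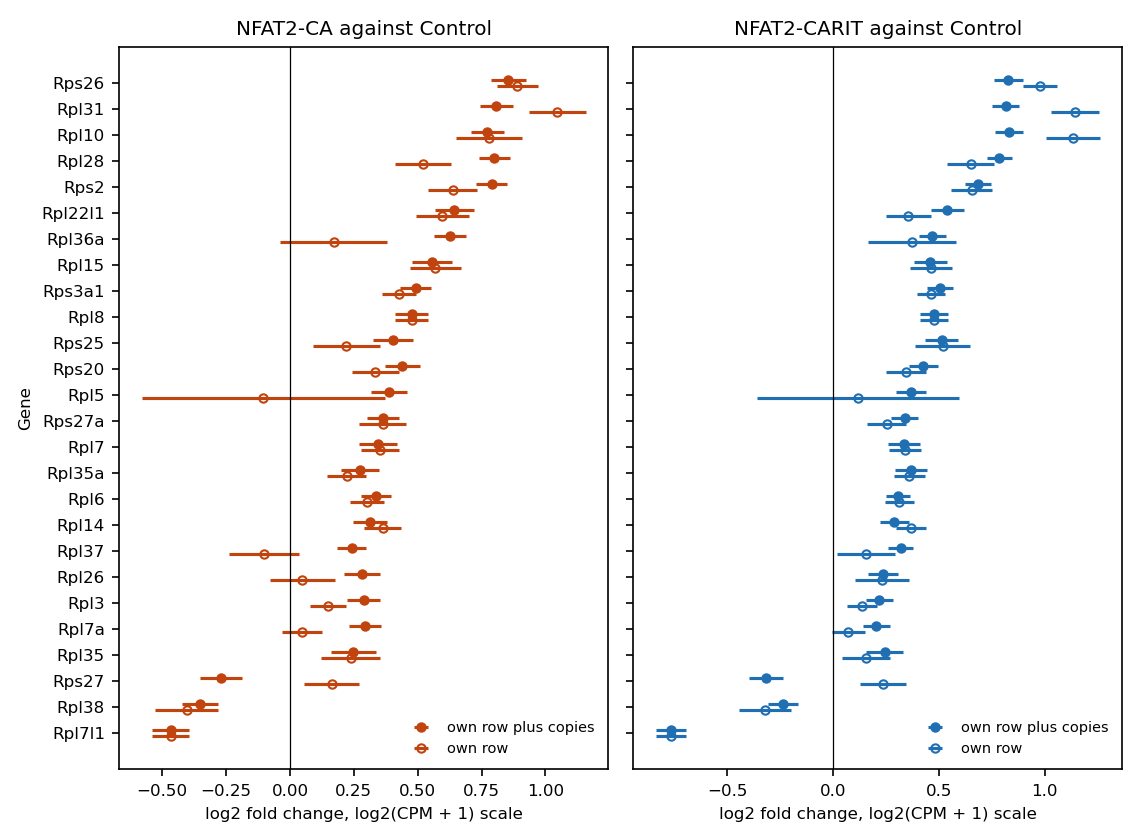
log2 fold change against Control on the log2(CPM + 1) scale, with SE bars, for 26 protein-coding members with large mean changes of the family sum; filled points are family sums and open points own rows. Rps26, Rpl31 and Rpl10 lie farthest to the right, Rpl7l1 farthest to the left, and Rpl5 has the widest own-row error (0.48).

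The stalk proteins Rplp0, Rplp1 and Rplp2, which recruit the elongation factors, were not called by limma under either vector, none of their unadjusted p-values was under 0.05, and the authors' deposited table called none of them. Rplp0 read 1546, 1493 and 1846 CPM in Control, 1635, 1751 and 1523 CPM with NFAT2_CA, and 1593, 1474 and 1391 CPM with NFAT2_CARIT, with overlapping groups and log2 fold changes of 0.01 ± 0.08 and -0.13 ± 0.08. Rpl5 and Rpl11, which with 5S rRNA form the particle that binds Mdm2 when ribosome assembly fails, were not called on own rows. The own row of Rpl5 was 10.8, 26.9 and 39.9 CPM in Control, a spread wider than any group difference, and its family sum rose by 0.39 ± 0.07 (adjusted p = 0.000162) and 0.37 ± 0.07 (adjusted p = 0.000232). The family sum of Rpl11 was not called, at 0.14 ± 0.07 and 0.07 ± 0.07. Rpsa, also known as the laminin receptor precursor, had log2 fold changes of -0.01 ± 0.08 and 0.04 ± 0.08.

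Several members have a paralogue. Rpl22l1, the paralogue of Rpl22, rose by 0.60 ± 0.10 (adjusted p = 0.000101) and 0.36 ± 0.10 (adjusted p = 0.00627), from 14.2 to 17.8 CPM in Control to 22.4 to 25.8 CPM and 18.6 to 23.9 CPM. Rpl22, which is needed for alpha-beta T cell development, stood at 461 to 540 CPM in Control, 488 to 521 CPM and 468 to 513 CPM, and was not called (0.04 ± 0.07 and 0.00 ± 0.07). Rps27l, a p53 target related to Rps27, stood at 20.9 to 27.5 CPM in Control and had log2 fold changes of 0.19 ± 0.09 (adjusted p = 0.0764) and 0.22 ± 0.09 (adjusted p = 0.0357). The retrogene Rpl36al was not called, at -0.11 ± 0.08 and -0.15 ± 0.08. The difference between the members of a pair was not tested.

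Rps27a, made as a fusion with ubiquitin, rose by 0.36 ± 0.09 and 0.25 ± 0.09, and on the family sum by 0.36 ± 0.06 and 0.34 ± 0.06. Rpl3, at the peptidyl transferase centre, was not called on the own row (0.15 ± 0.07 and 0.14 ± 0.07) and rose on the family sum by 0.29 ± 0.06 and 0.22 ± 0.06. Rps19, the gene most often mutated in Diamond-Blackfan anaemia, had log2 fold changes of -0.12 ± 0.07 (adjusted p = 0.145) and -0.22 ± 0.07 (adjusted p = 0.0134) on its own row, and its family sum was not called. Rpl13a, Rpl23a, Rpl24 and Rpl41 were called in neither comparison on own rows or family sums. Among ribosomal proteins outside the symbol rule, Fau, made as a fusion with a ubiquitin-like protein, fell by 0.40 and 0.24 on its own row (SE 0.09). Its family sum fell by 0.32 and 0.29 (SE 0.08). Rack1, a scaffold protein of the small subunit, was not called.

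With NFAT2_CARIT the counts against Control were 27 of 85 members higher and 11 lower on own rows (44.7%), where 29.2% and 41.1%, together 70.3%, of all genes tested were called. The groups did not overlap for 25 higher and 10 lower members, against 73.1% of all genes. The members' median log2 fold change was 0.09, against -0.09 for all genes. On family sums 32 of 80 were higher and 11 lower (53.8%), where 29.3% and 41.7%, together 71.0%, of all genes were; 29 and 12 did not overlap, against 73.7% of all. Among the largest rises were Rpl31, Rpl10, Rps26, Rps2 and Rpl28, and the largest falls Rpl12, Rpl7l1, Rps12, Rpl38, Rpl18 and Rps9, with the values given above or, for Rpl18, a fall of 0.29 (SE 0.07) and for Rps9 a fall of 0.27 (SE 0.11; adjusted p = 0.0442). On family sums Rpl18 fell by 0.215 (SE 0.06) and Rps9 by 0.24 (SE 0.10). Without Control replicate 3 the own rows gave 33 higher and 7 lower, without NFAT2_CARIT replicate 2 they gave 6 lower and without NFAT2_CARIT replicate 3 they gave 7 lower. Family sums called lower were 19 without Control replicate 1, 7 without Control replicate 3 and 7 without NFAT2_CARIT replicate 3.

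NFAT2_CARIT was also compared directly with NFAT2_CA. The vectors differ in AP-1 cooperation, and Nfatc1 itself was lower with NFAT2_CARIT by -0.53 on the log2 scale (adjusted p = 9.22e-05), so the level of NFAT2 mRNA and the AP-1 changes cannot be told apart. The comparison's fold changes use no Control library, although those libraries enter the shared estimate of the spread. It gave 2 members higher and 2 lower of 85, 4.7% of the members, where 11.9% of all genes tested were called higher and 16.7% lower, together 28.6%. Their libraries did not overlap for 9 higher and 4 lower members, against 44.0% of all genes. Members higher were 4 without Control replicate 3 or NFAT2_CARIT replicate 3 and 5 without NFAT2_CA replicate 2. Members lower were 4 without Control replicate 3 and 1 without Control replicate 2, NFAT2_CA replicate 1 or 2, or NFAT2_CARIT replicate 2. The median log2 difference was 0.00 for the members and -0.03 for all genes. Rps15a was higher with NFAT2_CARIT by 0.28 ± 0.07 (adjusted p = 0.00842) on its own row, at 66.7, 71.3 and 69.1 CPM with NFAT2_CA and 90.1, 81.6 and 80.9 CPM with NFAT2_CARIT, and its family sum was not called (adjusted p = 0.206).

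Rpl7l1 was lower with NFAT2_CARIT than with NFAT2_CA by -0.30 ± 0.07 (adjusted p = 0.00508), with no overlap between their libraries. Unadjusted limma p-values under 0.05 were reached by 8 members higher and 4 lower of 85, and by 2138 higher and 2996 lower of all 13090 genes tested. The authors' deposited table called no member in this comparison, and none had an unadjusted p under 0.05 there, while it called 2.84% of all listed genes (1.19% higher, 1.65% lower). On family sums 1 gene was higher and 1 lower (Rpl7l1) of 80 (2.5%), where 12.1% and 17.3%, together 29.4%, of all genes were; 2 and 3 did not overlap, against 44.6% of all.

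The DNA around the start sites is shown for members with large and with small changes, to place the values beside the TOP tract and upstream motifs. RefSeq promoter entries (GRCm38.p6, 250 bases before to 50 after the annotated start) were found for 61 of the 80 protein-coding members, and the entry closest to the listed gene start was used. Each window below holds 15 bases before and 15 from the start, 5′ to 3′ on the gene's strand, with capitals marking the run of a C and at least 4 pyrimidines that begins closest to the start.
Rpl31, rose (chr1:39367836-39367865, plus): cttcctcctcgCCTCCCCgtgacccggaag
Rpl28, rose (chr7:4792950-4792979, plus): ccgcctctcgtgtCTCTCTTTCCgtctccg
Rps26, rose (chr10:128626492-128626521, minus): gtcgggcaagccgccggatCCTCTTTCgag
Rpl12, fell (chr2:32961697-32961726, plus): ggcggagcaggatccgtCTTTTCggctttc
Rpl38, fell (chr11:114668565-114668594, plus): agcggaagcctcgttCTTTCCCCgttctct
Rps27, family sum fell (chr3:90213634-90213663, minus): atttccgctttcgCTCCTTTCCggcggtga
Rpl13a, not called (chr7:45128731-45128760, minus): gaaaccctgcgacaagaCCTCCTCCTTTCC
Rplp0, not called (chr5:115559452-115559481, plus): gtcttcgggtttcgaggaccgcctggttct
A pyrimidine run lay in 7 of these 8 windows, which were chosen after values were seen. It was present in those shown that rose or fell and in Rpl13a, and absent from Rplp0. Among windows not shown, Rpl10, which rose, and Rpl7l1, which fell, had no such run. Annotated starts can lie some bases from the start used in these cells, and the entries lie 242 bases (Rps26), 153 (Rpl12), 91 (Rpl28), 56 (Rpl38), 17 (Rpl13a), 9 (Rpl31), 4 (Rps27) and 0 (Rplp0) from the gene start in the files.

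Counted over the 61 members with an entry, a C followed by 4 pyrimidines began within 10 bases of the start in 33 (54.1%), against 32.6% of 9202 tested genes with an entry. The ETS-type motif CCGGAAG or its reverse complement lay within the 300 bases in 39.3% of members and 20.1% of all, and GGAAA, the core bound by NFAT proteins, in 83.6% and 58.9%. For CACGTG, the E-box bound by Myc, the shares were 8.2% and 10.4%, and for the AP-1 motif TGACTCA 3.3% and 3.3%. Every motif was searched on both strands. The letters GGAA within CCGGAAG are followed by a G, so a CCGGAAG match is not itself a GGAAA match. Split by the family sums, GGAAA lay in 19 of 22 members called higher under both vectors, in 5 of 5 called lower under both and in 27 of the other 34. The pyrimidine run near the start lay in 12 of 22, 4 of 5 and 17 of 34, and CCGGAAG in 11 of 22, 1 of 5 and 12 of 34.

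Genes that work with the members moved in several ways. Of 20 translation factors and related genes with TOP mRNAs, 12 were called higher and none lower under each vector, where 29.0% and 29.2% of all genes tested were higher and 36.5% and 41.1% lower. None for NFAT2_CA and 1 for NFAT2_CARIT was lower at an unadjusted p under 0.05. Their median log2 fold changes were 0.26 and 0.23. Hnrnpa1, an RNA-binding protein, rose by 1.19 ± 0.09 and 1.12 ± 0.09. Eef1g and Eef2, which serve elongation, rose by 0.86 and 0.95, and by 0.38 and 0.29. Between the vectors, Pabpc1, the poly(A)-binding protein, was lower with NFAT2_CARIT by -0.31 (adjusted p = 0.00208) and Eif4b higher by 0.23 (adjusted p = 0.011).

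The list for ribosome assembly and rRNA synthesis fell. Of its 36 genes 29 were called lower and 1 higher with NFAT2_CA, and 33 lower and 1 higher with NFAT2_CARIT, where 36.5% and 41.1% of all genes were lower. The median was -0.52 and -0.73 against -0.06 and -0.09 for all genes. Between the vectors 11 of the 36 were lower with NFAT2_CARIT and none higher, where 16.7% of all genes were lower and 11.9% higher. Myc, which drives the transcription of ribosome genes, was at 107, 36.5 and 30.8 CPM on average in Control, NFAT2_CA and NFAT2_CARIT and fell by 1.52 and 1.76. Polr1b, a subunit of RNA polymerase I, fell by 2.34 and 2.57, and Polr1a by 1.72 and 2.21. Dkc1, the pseudouridine synthase of small nucleolar particles, fell by 1.75 and 1.86. Riok1, a kinase of late small-subunit assembly, was the one gene called higher, by 1.25 and 1.11. With TMM factors the counts were 29 and 33 lower, and without Control replicate 3 they were 30 and 33.

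Among 14 genes that control TOP mRNAs through mTORC1, 3 were higher and 8 lower with NFAT2_CA, and 4 higher and 8 lower with NFAT2_CARIT, beside the shares of all genes given above. Larp1 fell by 0.28 and 0.32 and Rptor, the scaffold of mTORC1, by 0.51 and 0.57, whereas Eif4e, the cap-binding protein, rose by 0.93 and 0.99 and Rheb, the activator of mTORC1, by 0.47 and 0.69. Of 12 genes of ribosome rescue and quality control, 4 were higher and 3 lower with NFAT2_CA and 5 higher and 4 lower with NFAT2_CARIT. This came to 58.3% and 75% called, where 65.5% and 70.3% of all genes were. Pelo, which releases stalled ribosomes, rose by 0.69 and 0.59, and Ltn1, a ubiquitin ligase of stalled chains, fell by 0.49 and 0.44. Of 77 mitochondrial ribosomal proteins tested, 13 were higher and 25 lower with NFAT2_CA, and 12 higher and 36 lower with NFAT2_CARIT, with medians of -0.09 and -0.20 (TMM: 16 and 19, 14 and 31). Called were thus 49.4% and 62.3% of them, below the 65.5% and 70.3% of all genes. The cytosolic members' medians were 0.07 and 0.09 in the same comparisons.

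**Figure D5:**
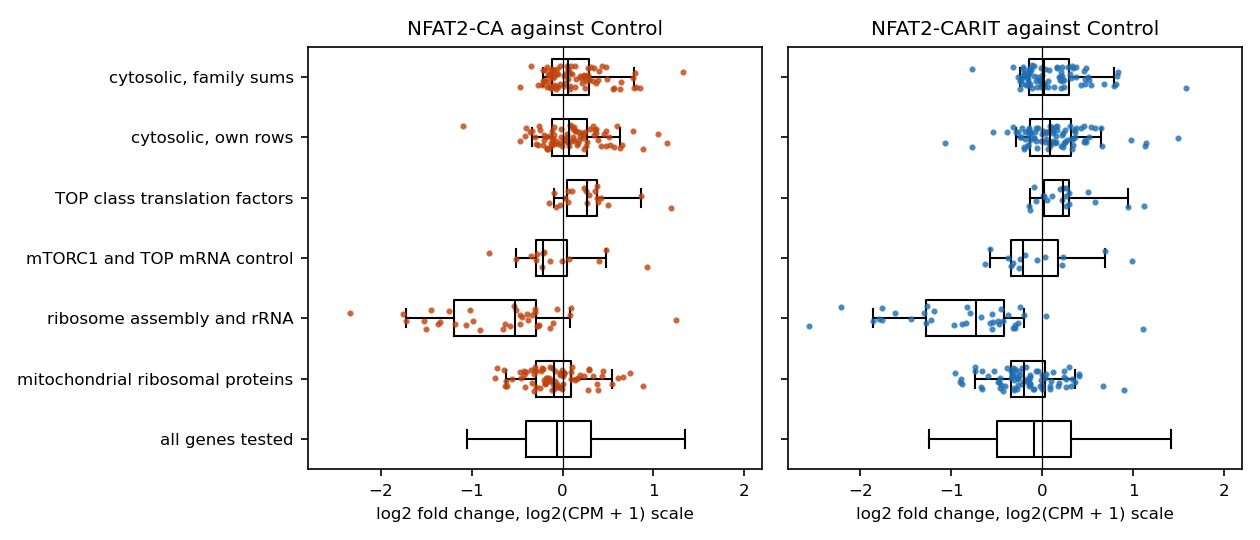
log2 fold change against Control on the log2(CPM + 1) scale for all genes tested, 4 other lists and the cytosolic members on own rows and as family sums; each point is a gene (all genes tested are drawn as a box alone), boxes show the quartiles and median, and whiskers the 5th and 95th percentiles. The ribosome assembly list lies to the left of 0, with medians of -0.52 and -0.73, while the cytosolic members centre near 0 with a tail to the right.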

How the data were processed

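The authors' deposited table gives CPM for 16500 genes in 9 libraries, with 0.0001 added to every value. Their deposited comparison table, made with DESeq2 in Partek 10 on build mm10 per the submitters' processing notes, holds, per the file headers, the p-value, its step-up FDR, the ratio between groups and the log2 of that ratio. For the aligner, annotation, strand and multi-mapped reads, details were not given in the sources used here. Depth was 19957700 to 38195100 reads, so 3 reads equal 0.079 to 0.15 CPM, for counting error only.

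limma 3.58.1 (R 4.3.3) was fitted on log2(CPM + 1) over all 9 libraries, with robust empirical Bayes and an intensity trend, and Benjamini-Hochberg adjustment over the 13090 genes with at least 1 CPM in 3 or more libraries. Fold changes are on that scale, which understates changes of low genes. Family sums were refitted the same way over 12867 genes, a choice made after seeing the data. Copies were found with blastn (BLAST+ 2.17.0). On data simulated for NFAT2_CA against Control, with 12823 genes tested, 22 of 50 genes changed by 0.3, 49 of 50 by 0.6 and 50 of 50 by 1 were recovered, with 5 false calls. Only 50 genes were changed at each size, and all genes were given the same relative spread beyond counting error. In the data 65.5% of genes were called, so the simulation cannot give the recovery in these comparisons.

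The members and gene lists were chosen with earlier results of these data known. Named were the 6 largest rises and falls among called members of each comparison and a list of members read out whatever their result. Genes of other lists beyond their 3 largest changes, and the sequences shown, were chosen after values were seen. Coordinates are those of the files, with the end 1 base lower, as GENCODE M21 has it. Alternatives were other pseudocounts, filters, scalings (TMM factors computed on CPM), fits and left-out libraries. Results for some members and genes of the lists are not reported here, though counts and medians include them.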

Additional observations from a re-analysis of the deposited data

How the results depend on the processing

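Of 3849 alternative values for the 39 named members, 3482 kept their direction and side of the threshold, 118 lost a call, 83 gained one and 161 changed sign without a call on either side. The 5 that reversed were all between own row and family sum: Rpl5 (0.39, NFAT2_CA), Rps12 (0.104 and 0.0694) and Rps27 (-0.27 and -0.32); the cause was not tested. The authors' deposited table called fewer members: 16 higher and 2 lower in each comparison with Control, and 0 and 0 between the vectors. TMM factors gave 4 lower for NFAT2_CARIT on own rows, and on family sums 4 lower for NFAT2_CA, 3 lower for NFAT2_CARIT and an NFAT2_CARIT median of 0.11. The median of all genes tested also rose with these factors.

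Between the vectors, members higher and lower were 4 and 1 with TMM factors, 8 and 7 with array quality weights and 1 and 1 on family sums. Members higher were 7 with quantile normalization, 4 with a filter of 10 CPM and 4 with only the 6 libraries compared. Members lower were 1 with no filter, with plain empirical Bayes and with the replicate block. On family sums the groups' shares of CPM were 10.3%, 11.2% and 10.99%.

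With each library left out in turn, own rows gave 23 to 34 higher and 9 to 15 lower for NFAT2_CA, 23 to 33 and 6 to 14 for NFAT2_CARIT, and 2 to 5 and 1 to 4 between the vectors. Medians of members ran from 0.03 to 0.14, 0.04 to 0.18 and -0.03 to 0.03. Family sums gave 28 to 40 and 5 to 15, 27 to 39 and 7 to 19, and 0 to 2 and 1 to 3, with medians of 0.02 to 0.13, -0.03 to 0.12 and -0.07 to -0.00. Without Control replicate 2 the lower family sums for NFAT2_CA numbered 12. Rises in both comparisons with Control were most numerous without Control replicate 3. The smallest share of members was 2.52% in Control, 2.79% with NFAT2_CA and 2.76% with NFAT2_CARIT, the highest 2.75%, 2.92% and 2.85%.

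The labels do not say whether replicate numbers pair the libraries. Same-numbered deviations correlated from -0.07 to 0.26, and 4 of 9 libraries correlated best with their own number. With 3 libraries a group this cannot settle whether they were paired. The replicate block gave 26 higher and 10 lower, 29 and 11, and 3 and 1 members in the 3 comparisons. Precision is limited by 3 libraries a group and by reads split between genes and copies. The simulated test recovered 22 of 50 genes changed by 0.3, but with far fewer genes changed than were called in the data. It therefore does not give the recovery of small changes in these comparisons.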

Other observations

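Rps29 did not reach 1 CPM on its own row, at 0.042 to 0.51 CPM in the 9 libraries. Its family sum, nearly all on the copy Gm14303, was 59.0, 64.4 and 76.0 CPM in Control, 80.6, 85.7 and 80.3 CPM with NFAT2_CA, and 91.1, 87.9 and 83.8 CPM with NFAT2_CARIT. Its log2 fold change was 0.31 ± 0.08 (adjusted p = 0.00208) and 0.40 ± 0.08 (adjusted p = 0.000205).

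Rpl27 was uneven within groups on its own row. It stood at 20.9 CPM in NFAT2_CA replicate 1 and 17.2 CPM in NFAT2_CARIT replicate 2, against 3.67 to 5.93 CPM in the other 7 libraries, while its family sum ran from 912.5 to 1210 CPM. Rpl10-ps5, a copy of Rpl10, stood at 36.7 CPM in NFAT2_CARIT replicate 3 and at 1.75 to 3.44 CPM in the other 8 libraries. These values were picked out after they were seen, and the cause was not tested.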
